A study of Oryza sativa with 4 samples.

Results

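The transcripts described here gave a strong signal in young panicles of the rice cultivar Pusa Basmati 1 and next to none in those of Pusa 1266. They were chosen by these very signals. An Affymetrix probe set, the group of short probes that together report 1 transcript, was taken when its deposited signal was 200 or more on both Pusa Basmati 1 arrays and 16 or less on both Pusa 1266 arrays. Of 57258 probe sets that are not array controls, 136 met both limits. Leaving out genes of the H2B, JAZ, HSP, WRKY, RAB and MADS families removed 6 probe sets of 5 genes, so 130 remained. The array annotation gave 1 gene for 71 of them and none for 59, and the 71 belonged to 67 genes of 17905 with a probe set of their own.

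Each cultivar, Pusa Basmati 1 and Pusa 1266, was represented by 2 biological replicates. All 4 samples were panicle primordia at the stage numbered 0 from rice of the Indica group, with no treatment named, and biotin-labelled cRNA was made from 8 ug of total RNA. The sample characteristics give low grain number per panicle for Pusa Basmati 1 and high for Pusa 1266, whereas the titles say low for both, so the groups are called by cultivar only. Values are signal intensities on a linear scale, with arrays in the order replicate 1, replicate 2, and no detection call comes with them.

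The panicle primordium is the young inflorescence, in which the meristem lays down the branches that later carry the spikelets and so the grains. A probe set reads a transcript only through the few short stretches its probes match, so different probe sets of 1 gene can give different signals. No probe or cultivar sequence was used here. In whole tissue, fewer cells of a type and less RNA per cell cannot be told apart.

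The arrays did not stand at 1 level. Their median signals were 11.5 and 11.3 in Pusa Basmati 1, against 6.8 and 7.8 in Pusa 1266, and 55.3% and 55.2% of probe sets, against 62.5% and 60.8%, were at 16 or less. Of the 8 young-panicle markers listed, 7 were found, and all were above 16 on every array, from 111.8 to 3279 in Pusa Basmati 1 and from 146.4 to 2551 in Pusa 1266. RFL gave 402.3 and 383.6 in Pusa Basmati 1, against 1312.1 and 1680.5 in Pusa 1266. LAX1 gave 111.8 and 121.5, against 210.7 and 210.7. MADS34 ran the other way, with 494.4 and 595.7, against 146.4 and 181.3. After the quantile normalization described below, the log2 differences of SPL14, MADS14, MADS15 and MADS18 lay between -0.58 and 0.12. The summed signal of 3 green-leaf genes was 2781 and 3257 in Pusa Basmati 1, against 808.3 and 818.9 in Pusa 1266. Most of that sum came from CAB2R, with 2641 and 3091, against 784.7 and 781.7. The RBCS gene LOC4351966 gave 139.0 and 165.1, against 31.4 and 23.3. RBCS1 was near zero in both cultivars, with 0.9 and 0.8, against 2.8 and 3.3. For 5 floral organ genes of a later stage the summed signal was between 2087 and 2459 in Pusa Basmati 1 and between 1403 and 1560 in Pusa 1266. These sums are on the signals as deposited. After the quantile normalization described below, the log2 differences of the 5 floral organ genes ran from -0.48 to -0.05, so the direction turned with the scaling. For 5 control transcripts with probe sets at both ends, the ratio of the 3′ to the 5′ signal was lower on both Pusa Basmati 1 arrays than on both Pusa 1266 arrays. For GAPDH it was 7.55 and 8.50 in Pusa Basmati 1, against 20.3 and 18.5 in Pusa 1266, and for ubiquitin 0.754 and 0.767, against 1.07 and 1.08. With the arrays put on 1 level the rule took fewer probe sets, 76 by trimmed mean and 75 by quantile normalization. Beyond this, the part of array level, panicle and leaf transcripts and RNA ends in the values below was not tested.

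Over the 130 probe sets, the lowest, median and highest signals were 200.8, 384 and 4241 on the first Pusa Basmati 1 array and 201.8, 418.2 and 4909 on the second. On the Pusa 1266 arrays they were 0.1, 2.65 and 15.9 on the first and 0.2, 4.95 and 15.9 on the second. The rule fixes the gap between the cultivars, so it is a description and carries no test. The rule also sets how high the Pusa Basmati 1 signals start. By the mean of the Pusa Basmati 1 arrays, 66 lay between 200 and 400, 35 between 400 and 800, 22 between 800 and 1600 and 7 higher still. In Pusa 1266, 19 were at 1 or less on both arrays and 79 at 8 or less, while 27 were at 8 or more on both.

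**Figure D1:**
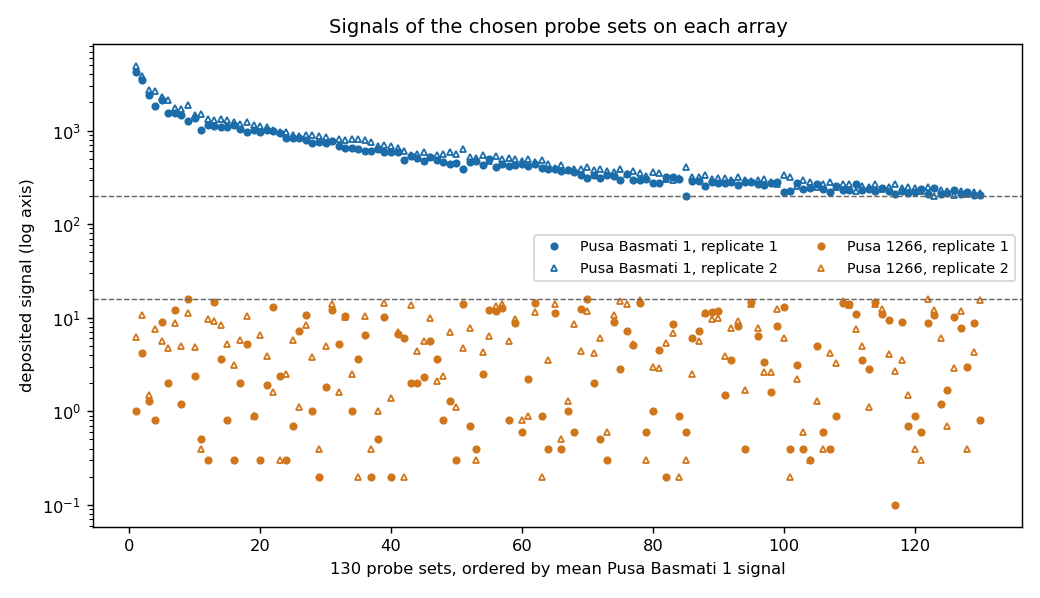
Deposited signal (log axis) of the 130 probe sets, ordered by mean Pusa Basmati 1 signal, with 1 point per array; colours mark Pusa Basmati 1 and Pusa 1266, symbols mark the replicates, and dashed lines mark 200 and 16. The Pusa Basmati 1 signals run from 200.8 to 4909 and the Pusa 1266 signals from 0.1 to 15.9, a gap set by the rule.

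The 2 Pusa Basmati 1 replicates resembled each other about as closely for these transcripts as for others. The second replicate over the first had a median of 1.14 and a range of 0.830 to 2.05, beside a median of 1.12 and a range of 0.588 to 2.18 for the 11452 probe sets at 200 or more on both. The 130 were 1.14% of those 11452, and the 136 before families were left out were 1.19%. The opposite rule asked for 200 or more in both Pusa 1266 arrays and 16 or less in both Pusa Basmati 1 arrays. Before families were left out it took 60 probe sets, or 0.763% of the 7866 probe sets at 200 or more in Pusa 1266. With the families left out it took 59 probe sets, with 25 genes among them. The array levels differed, so these shares were not compared by a test.

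A model across all 30029 probe sets with enough signal, fitted with limma to quantile-normalized log2(signal + 16), called 25.2% higher and 28.2% lower in Pusa Basmati 1 at an adjusted p under 0.05. That balance depends on the scaling: 7574 were higher and 8472 lower here, against 17956 higher and 1646 lower with the signals as deposited. All 130 passed its filter and were among the higher ones, which nothing is read from because the rule used the same arrays. Their log2 difference, Pusa Basmati 1 minus Pusa 1266, had a median of 3.80 and ran from 2.47 to 7.66, beside a median of -0.03 over all probe sets tested. Its size depends on the constant added, since the Pusa 1266 signals lie below it: the median was 6.13 with 1 added and 2.33 with 64.

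The limits cut through a continuous range. OsAffx.14773.1.S1_at, with 200.8 and 412.4 in Pusa Basmati 1, was just inside, and Os.17805.1.S1_at, with 211.1 and 199.1, was just outside. At the lower limit LOC4325751 was just inside with 15.9 and 11.1 in Pusa 1266, and LOC4347744, with 12.8 and 16.7, was just outside. Between 150 and 200 on the lower Pusa Basmati 1 array stood 42 further probe sets, and 25 had a higher Pusa 1266 signal above 16 and up to 20.

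Of the 67 genes, 3 carried a name beyond a locus number (4.48%, beside 13.7% of all genes on the array). The 5 genes left out earlier were recognised by a family name, while the 13.7% still counts such families. The lower share thus partly follows from the rule. Each of the 3 named genes is described in turn. MYB4, LOC4336407 on chromosome 4, encodes a transcription factor of the R2R3-MYB family known in rice for its part in the cold response. Its selected probe set gave 283.9 and 306.8 in Pusa Basmati 1, against 11.4 and 9.7 in Pusa 1266. A second MYB4 probe set, which the rule did not take, gave 3018 and 3419 in Pusa Basmati 1, against 279.4 and 310.7 in Pusa 1266. The second probe set was well above the low limit in both cultivars, and both probe sets stood higher in Pusa Basmati 1, by 2.97 and 2.72 on the log2 scale.

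LTI6B, LOC4337750 on chromosome 5, encodes a small hydrophobic membrane protein of a family induced by low temperature. Its selected probe set gave 406.2 and 537.2 in Pusa Basmati 1, against 11.7 and 13.3 in Pusa 1266 (log2 difference 3.49). The other LTI6B probe set was dim, with 20.8 and 26.0 in Pusa Basmati 1, against 0.5 and 3.3 in Pusa 1266. Both probe sets were higher in Pusa Basmati 1 with no overlap, and neither reached 16 in Pusa 1266.

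VDAC1, LOC4346851 on chromosome 9, encodes a porin, the channel through which small metabolites cross the outer mitochondrial membrane. Its 3 probe sets did not tell 1 story. The selected one gave 657.4 and 798.7 in Pusa Basmati 1, against 10.5 and 10.2 in Pusa 1266. Os.3441.1.S1_at gave 809.7 and 911.9, against 105.3 and 130.2, a log2 difference of 1.91. Os.3441.1.S1_s_at gave 1152 and 1234, against 962.4 and 1059. On this last probe set the cultivars lay close together: the difference was -0.50 after quantile normalization and 0.24 with the signals as deposited. Probe sets whose names end in _a, _s or _x can match several transcripts. This holds for Os.3441.1.S1_s_at and also for the selected one, Os.39720.1.A1_x_at. Of the 3, only Os.3441.1.S1_at has no such ending. Both probe sets of MYB4 and both of LTI6B also have such endings. Whether the signals of the probe sets with such endings came from VDAC1, MYB4 or LTI6B was not tested.

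The other 64 genes have locus numbers only, and the annotation used gives them no role. Searching names for 10 planned function groups found 205 genes in 8 of them. MYB4, among 97 transcription factors, was the only member of the selected set. Disease resistance (25 genes), receptor-like and wall-associated kinases (5), cytochromes P450 (30), glycosyltransferases (15), peroxidases (6), protease inhibitors (2) and ribosomal proteins (25) held 0, and no F-box or transposon gene could be found by name. So few names leave the functions of the set largely undescribed.

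The brightest of all was LOC4333210 on chromosome 3, with 4241 and 4909 in Pusa Basmati 1, against 1.0 and 6.2 in Pusa 1266. LOC4349255 on chromosome 10 was selected by both of its probe sets. The first gave 3473 and 3867 in Pusa Basmati 1, against 4.2 and 10.7 in Pusa 1266, and the second 1825 and 2628, against 0.8 and 7.6. For this gene every probe set on the array showed the same gap. LOC4326058 on chromosome 1 gave 2411 and 2718 in Pusa Basmati 1, against 1.3 and 1.5 in Pusa 1266.

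Further bright genes were LOC9268719 on chromosome 11, with 1540 and 1754 in Pusa Basmati 1, against 12.1 and 8.7 in Pusa 1266, and LOC4337669 on chromosome 5, with 1462 and 1684, against 1.2 and 5.0. LOC4325751 on chromosome 1 gave 1274 and 1871 in Pusa Basmati 1, against 15.9 and 11.1 in Pusa 1266. None of these had a second probe set of its own. LOC4337871 on chromosome 5 gave 1117 and 1302 in Pusa Basmati 1, against 14.9 and 9.3 in Pusa 1266, and LOC4334900 on chromosome 4 gave 1093 and 1325, against 3.6 and 8.3.

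Of the 67 genes, 64 are annotated as protein coding and 3 as long non-coding RNA (4.48%, beside 0.324% of all genes on the array). The opposite rule had 1 such gene of 25 (4%). Long non-coding RNAs are transcripts without a long reading frame, and several are known to act in gene regulation. LOC9271082 on chromosome 3 gave 1150 and 1341 in Pusa Basmati 1, against 0.3 and 9.6 in Pusa 1266. LOC4346960 on chromosome 9 gave 974.1 and 1132, against 0.3 and 6.5. LOC9267668 on chromosome 3 was the dimmest of the 3, with 241.4 and 237.6, against 11 and 12.3. The selected probe sets of LOC4346960 and LOC9267668 end in _s and _x, and so can match several transcripts. Another probe set of LOC9267668, Os.23106.1.A1_at, has no such ending and gave 117.4 and 158.8, against 9 and 3.2. The median gene span was 3213 bases for the 67 genes and 3526 bases for all genes.

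The 59 probe sets without a gene were 45.4% of the set, less than the 60.7% among all probe sets and more than the 17.8% among the 11452 bright in Pusa Basmati 1. The brightest were Os.7149.1.S1_at, with 2100 and 2289 in Pusa Basmati 1, against 9.0 and 5.6 in Pusa 1266, and Os.40428.1.S1_at, with 1537 and 2140, against 2.0 and 4.8. Os.18313.1.S1_at gave 1015 and 1493 in Pusa Basmati 1, against 0.5 and 0.4 in Pusa 1266. Os.10477.1.S1_a_at and Os.10477.2.S1_x_at share a design number, the array's mark for sequences handled together. Another probe set of that number missed the rule narrowly, with 2725 and 3186 in Pusa Basmati 1, against 16.8 and 14.9 in Pusa 1266.

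Such shared numbers gave 11 further probe sets beside the members without a gene, and all 11 were called higher in Pusa Basmati 1, beside 25.2% of all probe sets tested. They were reached through probe sets chosen on the same arrays, so nothing is read from that count. Os.18758.1.S1_at was selected with 738.4 and 846.3 in Pusa Basmati 1, against 1.8 and 5.0 in Pusa 1266. Os.18758.1.S1_a_at, of the same number, gave 591.9 and 707.0, against 258.9 and 306.8, and Os.18758.2.S1_x_at gave 678.4 and 761.8, against 297.5 and 330.4. The near absence from Pusa 1266 therefore held for the selected probe set and not for its companions, whose endings can match several transcripts. A shared number does not always mean 1 gene: Os.17052.1.S1_s_at and Os.17052.2.S1_at are annotated to LOC4347149 and LOC4342989. Probe sets ending in _a, _s and _x made up 5, 10 and 18 of the 130.

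Whether a gene was near zero in Pusa 1266, or only the chosen probe set, could be asked for the 27 genes with at least 1 other probe set, and not for the remaining 40. These 27 genes had 42 other probe sets. For 16 of the 27 at least 1 of them was above 16 on both Pusa 1266 arrays, and for 6 at least 1 was at 200 or more there. For 11 genes none was above 16 on both. Among these 11, LOC4323915 and LOC4347150 had only an other probe set at 16 or less on every array, which cannot answer the question. That of LOC4344943 reached 23.7 on the second Pusa 1266 array. By probe set, 23 of 42 were above 16 on both Pusa 1266 arrays (54.8%), beside 36.6% of all probe sets. Of these 23, 10 probe sets of 7 genes had none of the endings _a, _s and _x. The wording "detected only in Pusa Basmati 1" thus describes the selected probe sets, and other probe sets annotated to the same genes did not all share it.

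**Figure D2:**
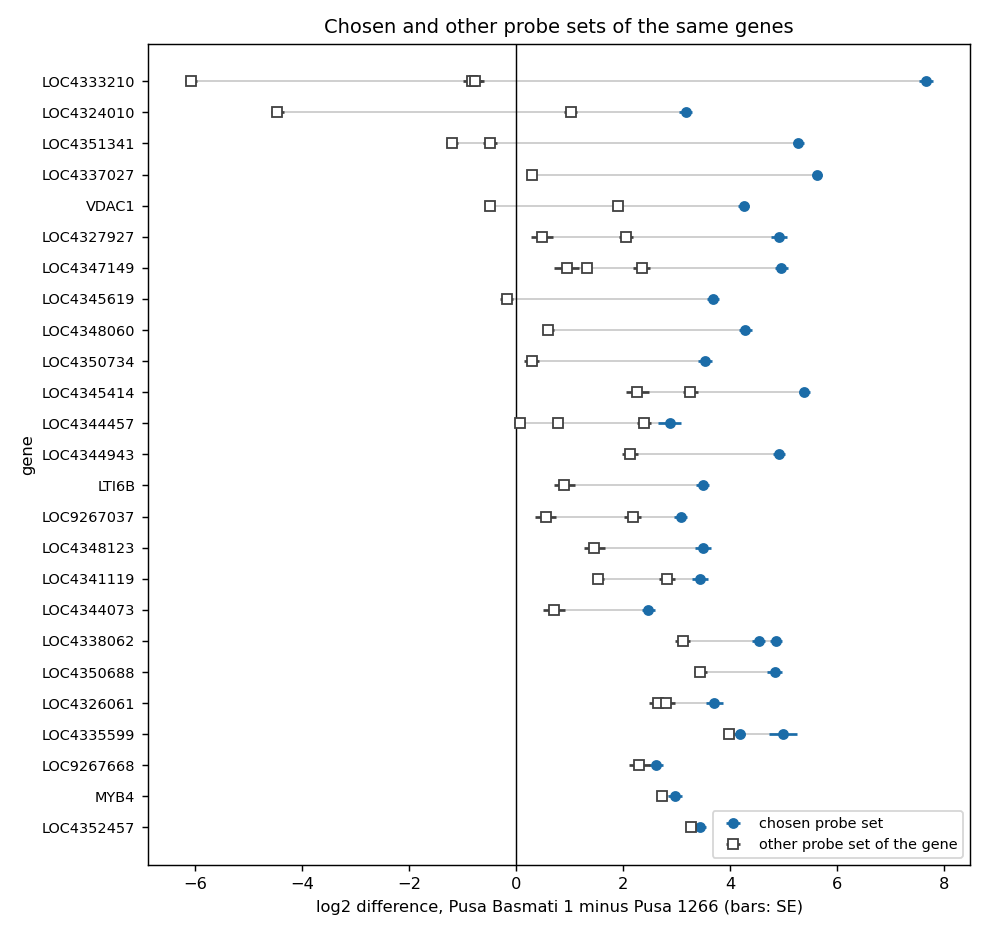
Log2 difference in log2(signal + 16), Pusa Basmati 1 minus Pusa 1266, of the selected probe sets (filled) and the tested other probe sets (open squares) of 25 genes, 1 gene per line, with bars for the standard error. Genes at the top differ most between probe sets: for LOC4333210 they run from -6.08 to 7.66, and for MYB4, near the bottom, from 2.72 to 2.97.

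Of the 42 other probe sets 39 were tested, and 28 of these, in 21 genes, were called higher in Pusa Basmati 1 (71.8%), 7 were called lower (17.9%) and 4 were not called, beside 25.2% higher and 28.2% lower among all probe sets tested. Their median log2 difference was 1.33, and 21 were higher by 2-fold or more and 3 lower by as much, beside 7.63% and 5.68% of all probe sets tested. The genes were chosen on the same arrays, so these counts are a description and nothing is read from them. In 17 of the 25 genes with a tested probe set all of them were higher, and in 4 genes at least 1 was lower.

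The widest contradictions came from LOC4333210 and LOC4324010, each of which also had a probe set meeting the opposite rule. For LOC4333210, Os.52294.1.S1_at gave 7.0 and 12.4 in Pusa Basmati 1, against 1193 and 1303 in Pusa 1266, a log2 difference of -6.08. Its probe set Os.47722.1.S1_at gave 40.8 and 59.3, against 57.8 and 50.1, so the cultivars overlapped. The brightest gene of the set was thus read as near zero in either cultivar, depending on the probe set.

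LOC4324010 on chromosome 1 was selected with 270.3 and 297.0 in Pusa Basmati 1, against 6.3 and 7.8 in Pusa 1266. Its probe set Os.20714.1.S1_at ran the other way, with 0.7 and 0.5 in Pusa Basmati 1, against 245.7 and 272.0 in Pusa 1266 (log2 difference -4.47). Its remaining one, Os.8761.1.S1_s_at, which by its ending can match several transcripts, gave 343.6 and 491.7, against 94.6 and 112.3. In these genes the 3 kinds of pattern, high in either cultivar and present in both, sat side by side.

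LOC4351341 on chromosome 12 and LOC4337027 on chromosome 4 had a bright companion in both cultivars. For LOC4351341 the selected probe set gave 754.3 and 879.2 in Pusa Basmati 1, against 0.2 and 0.4 in Pusa 1266. Os.10374.2.S1_at of the same gene gave 489.6 and 740.3, against 469.6 and 508.9. Os.26742.1.S1_at, also of LOC4351341, was lower in Pusa Basmati 1 with no overlap, with 116.8 and 122.1, against 166.1 and 159.1. Its log2 difference was -1.20 after quantile normalization and -0.40 as deposited. For LOC4337027 the selected one gave 1020 and 1144 in Pusa Basmati 1, against 0.9 and 0.9 in Pusa 1266, and Os.5631.1.S1_s_at gave 1032 and 1134, against 518.1 and 508.0. By its ending Os.5631.1.S1_s_at can match several transcripts. The Os.10374.2.S1_at ranges overlapped between the cultivars, and the direction of that difference turned with the scaling of the arrays, -0.49 after quantile normalization and 0.29 as deposited.

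**Figure D3:**
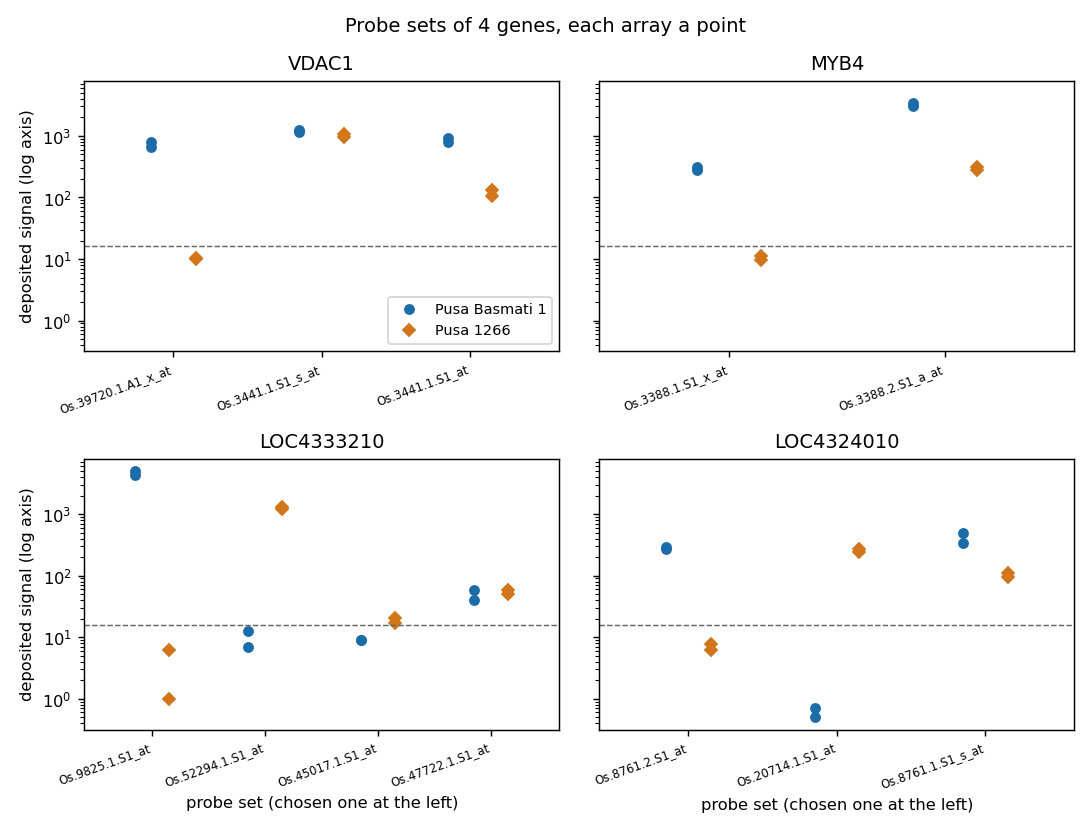
Deposited signal (log axis) of every probe set of VDAC1, MYB4, LOC4333210 and LOC4324010, with the selected probe set at the left of each panel, 1 point per array, Pusa Basmati 1 left of Pusa 1266, and a dashed line at 16. Each of the 4 genes has another probe set above 200 on both Pusa 1266 arrays.

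Other genes held together across their probe sets. LOC4338062 on chromosome 5 was selected by 2 probe sets, the brighter with 591.5 and 680.2 in Pusa Basmati 1, against 0.2 and 1.4 in Pusa 1266. Its remaining one, Os.38301.2.A1_at, gave 172.2 and 205.8, against 0.9 and 2.1. LOC4345414 on chromosome 8 was selected with 1006 and 1094 in Pusa Basmati 1, against 1.9 and 3.9 in Pusa 1266. Its other probe sets, Os.26411.2.A1_at and Os.26411.2.A1_x_at, had log2 differences of 2.26 and 3.25. In both genes no probe set exceeded 16 in Pusa 1266.

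An intermediate kind was high in Pusa Basmati 1 and low but measurable in Pusa 1266. LOC4335599 on chromosome 4 was selected by 2 probe sets, and its remaining one, OsAffx.3952.1.S1_s_at, gave 2840 and 3479 in Pusa Basmati 1, against 105.9 and 114.5 in Pusa 1266. LOC4350688 on chromosome 11 had Os.11385.1.S1_a_at at 2446 and 2789, against 102.5 and 164.4. The groups did not overlap in either gene. OsAffx.3952.1.S1_s_at and Os.11385.1.S1_a_at have endings that can match several transcripts, so their Pusa 1266 signals need not come from these genes.

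By the gene order of the Japonica assembly ASM3414082v1, the 67 genes lay on all 12 chromosomes. Chromosomes 12 and 10 had the most for their size, with 8 of 908 and 7 of 899 genes on the array, or 8.81 and 7.79 per 1000, beside 3.74 over the genome. Chromosome 2 had the fewest, 4 of 2125 genes (1.88 per 1000). The opposite rule took 1 gene of chromosome 12 and 0 of chromosome 10. Rates by chromosome rest on 4 to 8 genes each and were not tested.

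**Figure D4:**
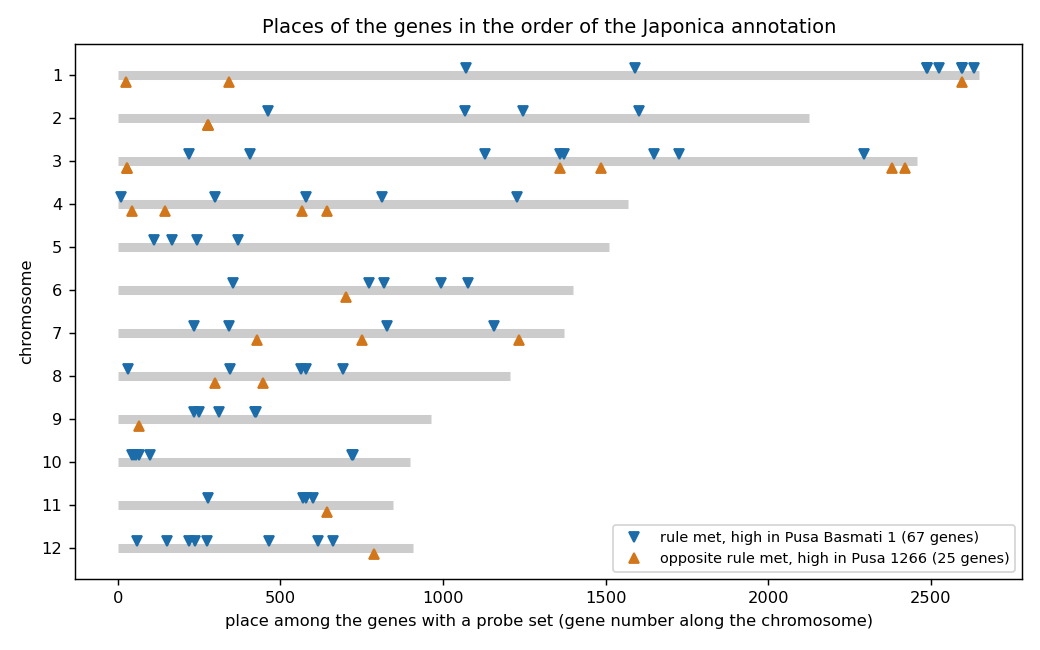
Place of each of the 67 genes (downward triangles), and of the 25 genes of the opposite rule (upward triangles), among the genes with a probe set along each chromosome; grey bars show how many genes a chromosome has. Chromosome 10 shows 5 of its 7 genes near the start, and chromosome 1 shows 6 of its 8 near the end.

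Along chromosomes some genes sat close together, in windows picked after their places were seen. On chromosome 1, 6 of 8 lay among the last 163 of 2649 genes, and on chromosome 10, 5 of 7 lay within 58 genes, from place 43 to place 100. There were 3 pairs of direct neighbours. LOC4326058 was followed on chromosome 1 by LOC4326061, with 226.2 and 320.4 in Pusa Basmati 1, against 0.4 and 0.2 in Pusa 1266. LOC4324010 was preceded by LOC4324008, with 271.8 and 248.2, against 5.0 and 1.3.

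The last pair was on chromosome 9. LOC4347149 gave 651.3 and 804.7 in Pusa Basmati 1, against 1.0 and 2.5 in Pusa 1266. Another probe set of LOC4347149, Os.5374.1.S1_s_at, was measurable in both cultivars, with 590.3 and 683.4, against 117.6 and 145.1. Its remaining ones stayed at 16 or less in Pusa 1266. Os.49252.1.S1_x_at gave 93.2 and 127.2, against 1.6 and 3.1, and Os.55087.1.S1_at gave 46.9 and 59.8, against 14.7 and 5.7. The neighbour LOC4347150 gave 951.0 and 966.3, against 2.4 and 0.3. Its other probe set, Os.53944.1.A1_at, was near zero in both cultivars, with 2.0 and 2.9, against 0.4 and 0.3. The selected probe sets of both genes, and Os.5374.1.S1_s_at, end in _s and so can match several transcripts. The gene after this pair, LOC4347151, chosen after its values were seen, gave 746.9 and 879.0, against 58.6 and 39.5. On chromosome 10, LOC4349255 and LOC4349257 were separated by 1 gene, LOC4349256, with 762.1 and 791.1 in Pusa Basmati 1, against 146.0 and 175.2 in Pusa 1266. LOC4349257 itself was selected by 2 probe sets, the brighter with 597.7 and 758.3, against 0.2 and 0.4.

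Near the start of chromosome 10 a row of 5 consecutive genes on the array was low in Pusa 1266, singled out after the values were seen. In order these were LOC4348034, LOC4348037, LOC4348040, the selected LOC4348043 and LOC4348044. LOC4348043 gave 332.9 and 366.0 in Pusa Basmati 1, against 0.3 and 0.6 in Pusa 1266. LOC4348040 gave 164.6 and 186.6, against 1.6 and 0.5, and LOC4348044 gave 125.5 and 147.3, against 0.7 and 0.8. Over the 5 genes no Pusa Basmati 1 signal was under 38.2 and no Pusa 1266 signal was over 4.1. The same stretch also held genes that went the other way: LOC4348063 gave 5.7 and 9.0 in Pusa Basmati 1, against 104.4 and 104.3 in Pusa 1266. Among the 43 other tested genes from place 43 to 100, 6 were higher (14.0%) and 9 lower (20.9%) in Pusa Basmati 1 by 2-fold or more. The shares among all genes tested were 7.34% and 5.53%. The higher ones include LOC4348034, LOC4348037, LOC4348040 and LOC4348044 of the row just described. The window was picked after the places were seen, so these shares were not tested.

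**Figure D5:**
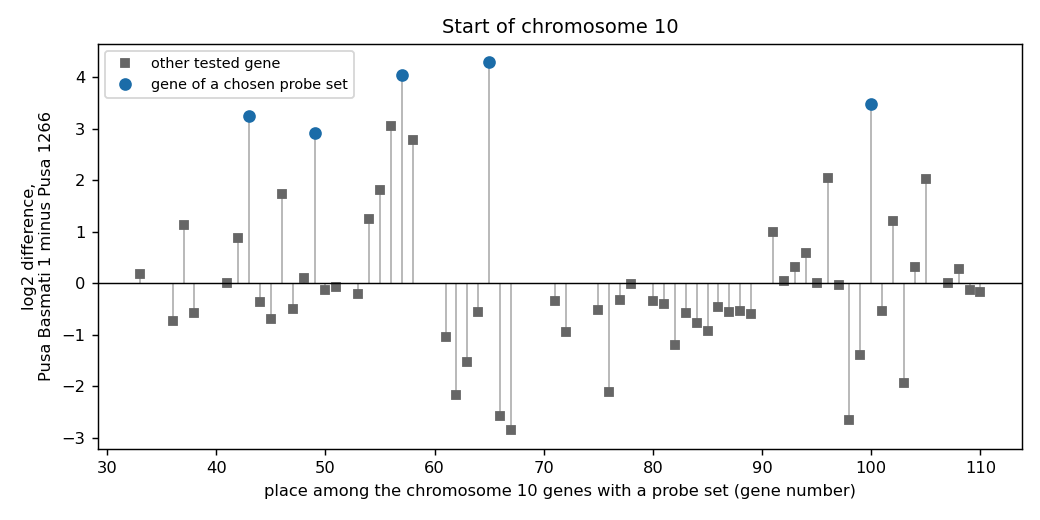
Log2 difference in log2(signal + 16), Pusa Basmati 1 minus Pusa 1266, of tested genes by their place near the start of chromosome 10, with circles for the selected genes and squares for others. The row of 5 genes stands between 1.25 and 4.05, and LOC4348063 stands at -2.86.

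Over all 67 places, the 5 nearest genes on either side gave 619 other genes, of which 514 were tested. By 2-fold or more, 45 were higher (8.75%) and 45 lower (8.75%) in Pusa Basmati 1, beside 7.34% higher and 5.53% lower among all 15181 genes tested by their brightest probe set. Their median log2 difference was -0.09, against -0.07 for all genes. Among direct neighbours, 13 of 102 tested genes were higher and 9 lower by as much. The neighbourhoods thus held changes in both directions, and as many genes were higher as lower. The direction of such calls depends on array scaling, as given in the closing section.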

How the data were processed

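Total RNA of 4 panicle samples, 2 per cultivar, was measured on Affymetrix arrays. The authors deposited a linear signal intensity for each probe set on each array, which per the submitters' processing notes came from GCOS 1.2. How background and scaling were handled is not given in the sources used here. Arrays give no counts, and their number limits the precision. Samples were grouped by the cultivar in their titles.

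The 123 control probe sets were left out. Members were found on the signals as deposited. Log2(signal + 16) was quantile normalized, and the 30029 probe sets above their array's median on at least 2 arrays were fitted in limma 3.58.1 under R 4.3.3 (lmFit, then eBayes with trend), and p-values were adjusted after Benjamini-Hochberg with calls under 0.05. Differences are Pusa Basmati 1 minus Pusa 1266. With 2 arrays against 2, the smallest two-sided p of an exact permutation test is 0.333, and none was run. The fit was tested on simulated data. The remaining steps and plots used Python 3.11.15, pandas 2.3.3, numpy 2.4.6 and matplotlib 3.10.9.

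For each gene the probe set with the greatest mean signal across the 4 arrays stood for it. Names, chromosomes and gene order came from the array annotation and assembly ASM3414082v1. The array's own build is not stated, so only gene order is used. No sequences were used.

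The members and lists were chosen with earlier results of these data known. Genes named are those with a given name, the 15 probe sets brightest in Pusa Basmati 1, those in runs, up to 10 with the largest gap to another probe set, and those nearest the limits; a few others are described as examples of a pattern and were chosen after their values were seen. Replicate numbers were not taken as pairs: the differences between replicates in the cultivars correlated with r = 0.0181 across probe sets. Alternatives covered scaling, the constant added, the filter, the rule's limits, the replicate block and each array left out.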

Additional observations from a re-analysis of the deposited data

How the results depend on the processing

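The 130 probe sets depend on the limits and the scaling. The rule took 76 with arrays scaled to 1 trimmed mean and 75 on quantile-normalized signals, each time with 40 genes in place of 67. It took 261 and 61 with an upper limit of 100 and 400, 79 and 218 with a lower limit of 8 and 32, 136 with the families kept, and 131 to 155 with 1 array left out. Calls over all probe sets shifted with scaling: 17956 higher and 1646 lower with the signals as deposited, and 13660 and 2906 with median centring, where the median difference of all probe sets was 0.55 and 0.32. Leaving out 1 array gave 5904 to 7058 higher and 6828 to 7562 lower. Of the other probe sets of the selected genes, 18 were higher under a filter at the 75th percentile, and 4 were lower as deposited and 4 with median centring (25 to 28 higher and 6 to 7 lower with 1 array left out). Among neighbouring genes, 2-fold calls were 139 higher and 15 lower as deposited, 94 and 17 with median centring, and 27 and 21 with 64 added (46 to 50 and 42 to 44 with 1 array left out). As deposited and with median centring, Os.10374.2.S1_at of LOC4351341 turned to 0.29 and 0.058, Os.3441.1.S1_s_at of VDAC1 to 0.24 and 0.0027, and Os.14258.1.S1_s_at of LOC4345619 to 0.61 and 0.37; the cause was not tested. With the replicate block, 7702 probe sets were higher and 8656 lower, and 28 and 7 of the other probe sets, so no count moved by more than 1.5 times. Signals below 16 limit every fold given here, and 2 arrays per cultivar limit each value.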
